A study of Mus musculus with 18 samples.

Results

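A set of 10 genes that mark preadipocytes or act in the commitment of precursor cells to the fat lineage were followed: Dlk1, Gas6, Thy1, Cd34, Ly6a, Zfp423, Zfp521, Ebf1, Ebf2 and Gata2. They were chosen by name, and every probe carrying one of these symbols in the platform annotation was taken. Of the 10 genes, 9 had a probe, out of 19057 genes with a probe on the array. Ly6a had no probe of that symbol and is not analysed here. The 9 genes had 16 probes, and 14 of these passed the filter for signal above background, so that all 9 genes were among the 10959 tested.

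The cells were 3T3-L1, a mouse fibroblast line that turns into adipocytes in culture. They were differentiated for 7 days and then exposed for 24 hours to 1 of 5 compounds or to the vehicle. Rosiglitazone was given at 100 nM, diclofenac as its sodium salt at 25 µM, indomethacin and GQ16 at 10 µM each, and ibuprofen at 75 µM, and DMSO was the vehicle. Each of the 6 groups had 3 arrays, 18 in all. All groups therefore share the differentiation protocol, no undifferentiated group was analysed here, and the concentrations differ between compounds. PPARγ is the nuclear receptor at the centre of adipogenesis and rosiglitazone, a thiazolidinedione, is one of its agonists. The series title gives its subject as the mechanisms by which these drugs and GQ16 activate that receptor. Nothing in the labels tells whether replicates were grown as separate cultures. The p-values therefore cover only the spread among these arrays, and that spread may be technical.

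Preadipocytes carry surface and secreted proteins that decline as they become fat cells. Dlk1 (Pref-1) is a transmembrane relative of the Notch ligands whose shed ectodomain inhibits adipogenesis, while Thy1, Cd34 and Ly6a are surface proteins used to sort precursor cells. Inside the nucleus, zinc finger and helix-loop-helix proteins set the commitment step: Zfp423 and the early B-cell factors Ebf1 and Ebf2 promote the fat lineage, while Zfp521 and Gata2 oppose it.

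Values are normalized log2 intensities, for which a difference of 1 is a doubling, and a level above 6.18 was taken as signal above background. A gene is said to have risen or fallen where limma's adjusted p, by Benjamini-Hochberg over all 10959 genes, was under 0.05. On every array 42.1% of probes lay above background. Rosiglitazone replicate 1 and DMSO replicate 3 each lay farthest within their own group, with root mean square deviations from the group mean of 0.286 and 0.207. The other 16 arrays gave 0.0923 to 0.229, and rosiglitazone replicate 2 (0.229) lay farther out than DMSO replicate 3. The arrays lay on 3 slides, and slide 1 held the other arrays of both groups. The rosiglitazone difference within slide 1 and the difference without rosiglitazone replicate 1 and DMSO replicate 3, called the 2 arrays apart here, are therefore the same number. Slide 2 held all 3 ibuprofen arrays, with DMSO replicate 3 as its only DMSO array, so ibuprofen and slide are largely confounded. Of the 13 adipocyte markers with a probe, 12 were above background on all 18 arrays and Car3 on none. The mean of the 13 was 11.30 to 11.41 on rosiglitazone arrays, 11.34 to 11.42 with diclofenac, 11.31 to 11.34 with indomethacin, 11.42 to 11.45 with ibuprofen, 11.36 to 11.38 with GQ16 and 11.26 to 11.35 with DMSO.

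Among the 6 groups, 3 of the 9 genes differed by limma's F test: Thy1 (adjusted p = 0.000647), Gas6 (adjusted p = 0.000775) and Zfp521 (adjusted p = 0.0102). The same test called 18.5% of all genes. The other 6 did not pass, with adjusted p-values of 0.0889 for Zfp423, 0.130 for Dlk1, 0.187 for Ebf1, 0.239 for Ebf2, 0.475 for Cd34 and 0.586 for Gata2.

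**Figure D1:**
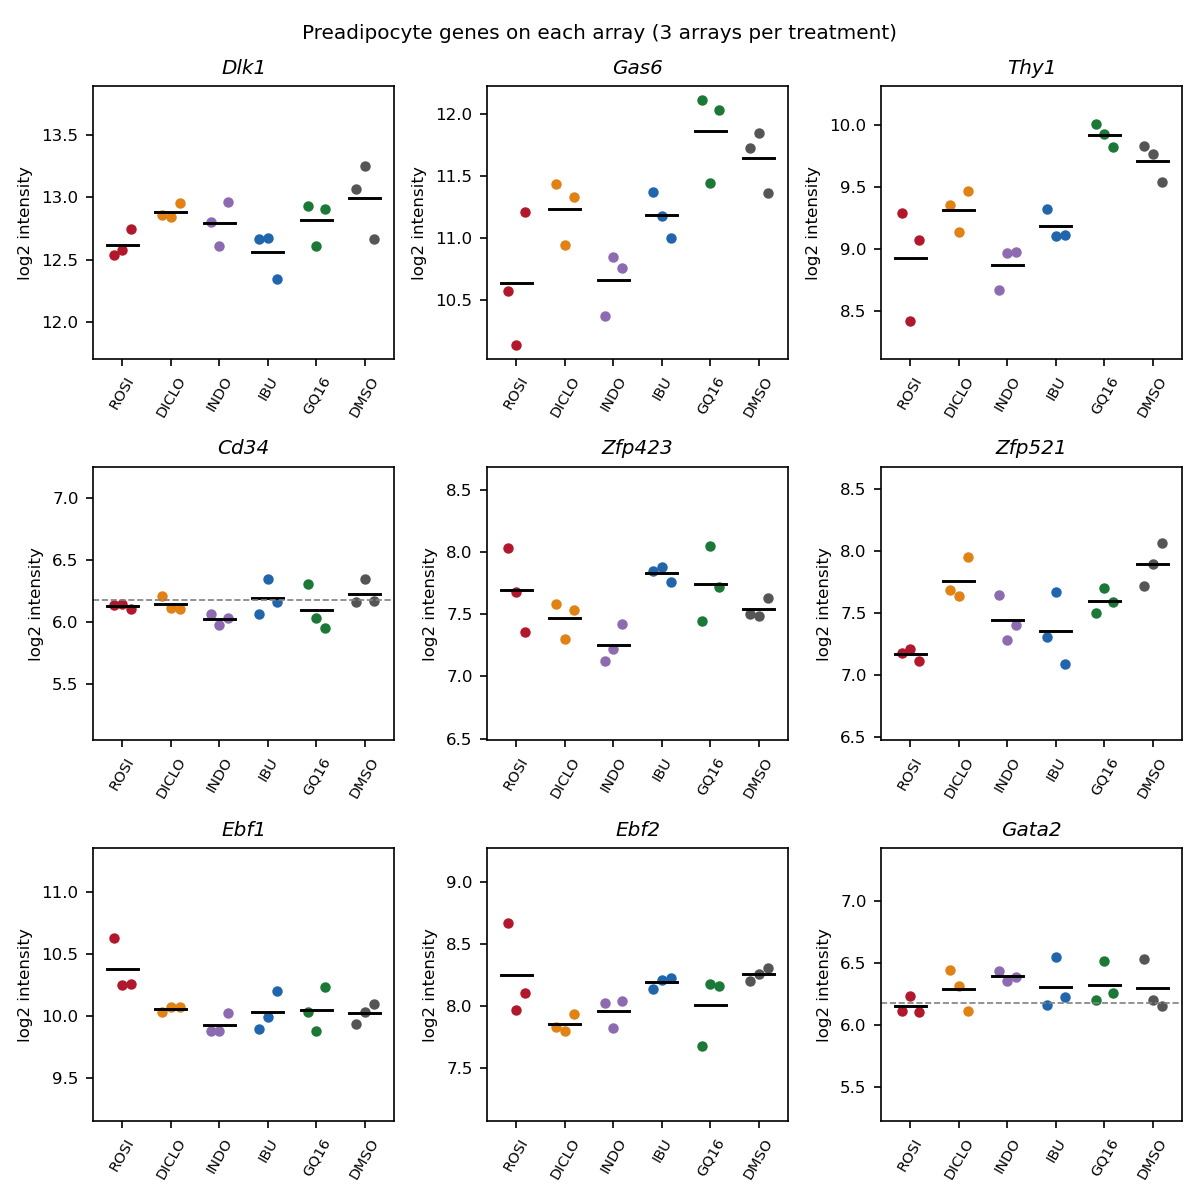
Normalized log2 intensity (vertical axes) of the brightest probe of each of the 9 genes on every array, with 3 points per treatment, a bar at the mean and a dashed line at the background level of 6.18 where it falls inside the panel. Gas6 and Thy1 sit lowest with rosiglitazone and indomethacin, and Zfp521 lies between 7.11 and 7.21 on the rosiglitazone arrays, against 7.72 to 8.06 on the DMSO arrays.

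Gas6 encodes a vitamin K-dependent secreted protein that is made by growth-arrested fibroblasts and binds the receptor tyrosine kinases Axl, Tyro3 and Mertk. Its window around the transcription start is shown because Gas6 had the widest range of group means among the 9 genes, and that of Dlk1 because it is the best known preadipocyte gene of the set. RefSeq windows (GRCm38.p6, 250 bases before to 50 bases after the start) were examined for 6 of the 9 genes. No window of Thy1, Zfp521 or Ebf2 was examined, so nothing is said here about motifs near their starts. The Gas6 window is chr8:13494486-13494785 on the minus strand and the Dlk1 window is chr12:109452573-109452872 on the plus strand, both printed 5′ to 3′ on the gene's strand, with motif matches in capitals.
Gas6: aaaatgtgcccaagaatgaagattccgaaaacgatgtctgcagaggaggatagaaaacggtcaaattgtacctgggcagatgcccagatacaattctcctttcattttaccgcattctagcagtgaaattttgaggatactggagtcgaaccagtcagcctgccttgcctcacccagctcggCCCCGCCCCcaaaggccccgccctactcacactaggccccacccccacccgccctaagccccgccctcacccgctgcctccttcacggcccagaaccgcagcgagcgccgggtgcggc
Dlk1: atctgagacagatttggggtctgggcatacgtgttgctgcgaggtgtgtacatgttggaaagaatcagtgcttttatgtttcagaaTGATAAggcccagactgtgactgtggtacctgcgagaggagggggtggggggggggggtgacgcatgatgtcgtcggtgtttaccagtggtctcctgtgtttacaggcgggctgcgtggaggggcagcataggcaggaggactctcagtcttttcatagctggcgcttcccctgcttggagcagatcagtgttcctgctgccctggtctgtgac

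Both strands were searched for 5 motifs, whose matches did not overlap in these windows. The capitals in the Gas6 window mark the GC box of Sp1, GGGGCGGGG, read from the reverse strand at window base 183, and 11.4% of 32851 mouse windows of this length hold it. The capitals in the Dlk1 window mark the GATA motif TGATAA at base 87, held by 9.05% of the windows. A second GATA motif, AGATAA, was in neither window and in 11.2% of all. The nuclear receptor motif AGGTCA, which PPARγ with RXR binds as a direct repeat, was in neither and in 16.3% of all. TGGGAA, the motif of the Notch effector RBPJ, was in neither and in 25.6% of all. The Gas6 window had 17 CpG dinucleotides and 58.3% GC, and the Dlk1 window had 9 CpG dinucleotides and 55.7% GC.

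Gas6 fell with rosiglitazone and with indomethacin. Its arrays read 10.57, 10.14 and 11.21 with rosiglitazone, 11.44, 10.95 and 11.33 with diclofenac, and 10.37, 10.85 and 10.76 with indomethacin. They read 11.37, 11.18 and 11.00 with ibuprofen, 12.12, 11.44 and 12.03 with GQ16, and 11.73, 11.85 and 11.37 with DMSO. Every rosiglitazone and indomethacin array was below every DMSO array, the GQ16 and DMSO arrays overlapped, and so did diclofenac and ibuprofen with DMSO at the edge. The group means ran from GQ16 (11.86 ± 0.37, SD, n = 3) through DMSO (11.65 ± 0.25), diclofenac (11.24 ± 0.26), ibuprofen (11.19 ± 0.18) and indomethacin (10.66 ± 0.25) to rosiglitazone (10.64 ± 0.54). Neighbours in that order overlapped except ibuprofen and indomethacin.

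Against DMSO the Gas6 log2 change was -1.01 ± 0.22 with rosiglitazone (SE, adjusted p = 0.00238), so that the DMSO level was 2.01-fold the rosiglitazone level. It was -0.99 ± 0.22 with indomethacin (adjusted p = 0.00444), which puts DMSO 1.98-fold above indomethacin. The rosiglitazone change was -0.96 with slide as a block in the fit and -1.11 within slide 1 (2 arrays against 2). The indomethacin change was -0.90 and -1.02 in the same settings, with 1 indomethacin array on slide 1. Both calls held in all 17 alternatives tested. Diclofenac gave -0.41 (95% interval -0.86 to 0.04, adjusted p = 0.421) and ibuprofen -0.46 (-0.91 to -0.01, adjusted p = 0.199), neither of which passed. The diclofenac difference was -0.84 within slide 1 and 0.07 within slide 2, with 1 diclofenac array on each. With GQ16 the change was 0.22 (-0.24 to 0.67, adjusted p = 0.664), and it was 0.75 within slide 2, where 1 array of each group lay. In bulk RNA, fewer cells that carry a transcript and less of it per cell cannot be told apart, here and for the genes that follow.

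The receptors of Gas6 were measured beside it, because they are its direct partners. Axl read 11.03, 10.16 and 10.41 with rosiglitazone, 10.00, 10.15 and 10.29 with indomethacin, 10.62, 10.69 and 10.35 with ibuprofen, against 11.06, 11.19 and 11.25 with DMSO. It fell with rosiglitazone (-0.63 ± 0.17, adjusted p = 0.0132), indomethacin (-1.02 ± 0.17, adjusted p = 0.000373) and ibuprofen (-0.62 ± 0.17, adjusted p = 0.0268), and no array of these groups reached the DMSO arrays. The ibuprofen call for Axl was lost with slide as a block (-0.63, adjusted p = 0.0764), and the rosiglitazone call was lost without rosiglitazone replicate 2 or 3 (adjusted p up to 0.0691). Diclofenac gave -0.62 for Axl (adjusted p = 0.0604) and GQ16 gave -0.13 (adjusted p = 0.758).

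Mertk read 9.71, 9.52 and 9.61 with rosiglitazone, 9.57, 9.55 and 9.76 with indomethacin, 9.76, 9.10 and 9.53 with ibuprofen, against 10.23, 10.41 and 10.14 with DMSO. With diclofenac it read 9.68, 9.54 and 9.69. It fell with all 4: by 0.64 on the log2 scale with rosiglitazone (adjusted p = 0.00853), -0.62 with diclofenac (adjusted p = 0.0490), -0.63 with indomethacin (adjusted p = 0.0148) and -0.80 with ibuprofen (adjusted p = 0.00321). GQ16 gave -0.41 (adjusted p = 0.201). The diclofenac and indomethacin calls were lost with slide as a block (adjusted p = 0.0639 and 0.0544), and leaving out DMSO replicate 2 ended the rosiglitazone call (adjusted p = 0.0518). Tyro3 was above background on none of the 18 arrays. Of the 5 genes measured among 6 Gas6 receptors, its homologue Pros1 and the vitamin K cycle enzymes, Axl and Mertk were thus the ones called, and Pros1, Ggcx and Vkorc1 were called with none of the 5 compounds.

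**Figure D2:**
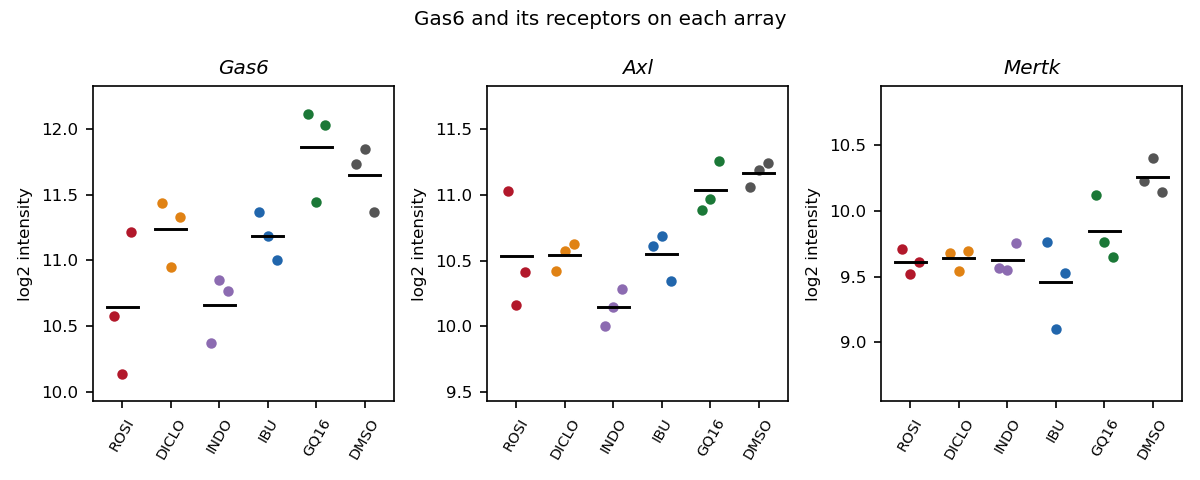
Normalized log2 intensity (vertical axes) of Gas6 and its receptors Axl and Mertk on every array, with 3 points per treatment and a bar at the mean. Axl lies between 10.00 and 10.29 on the indomethacin arrays, against 11.06 to 11.25 on the DMSO arrays, and the Mertk arrays of rosiglitazone lie between 9.52 and 9.71, against 10.14 to 10.41 with DMSO.

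Thy1 (CD90) is a small lipid-anchored glycoprotein of fibroblasts, mesenchymal precursors, neurons and T cells. Its arrays read 9.29, 8.42 and 9.07 with rosiglitazone, 8.67, 8.97 and 8.97 with indomethacin, and 9.82, 9.76 and 9.53 with DMSO. They read 9.35, 9.13 and 9.46 with diclofenac, 9.32, 9.10 and 9.11 with ibuprofen, and 10.00, 9.92 and 9.82 with GQ16. The arrays of rosiglitazone and of each of the 3 anti-inflammatory drugs lay below all DMSO arrays, while the GQ16 arrays overlapped the DMSO arrays at their upper end.

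The Thy1 change was -0.78 ± 0.18 with rosiglitazone (adjusted p = 0.00399, DMSO 1.72-fold above) and -0.84 ± 0.18 with indomethacin (adjusted p = 0.00357, DMSO 1.79-fold above). With slide as a block these were -0.81 and -0.91, and within slide 1 they were -1.05 and -0.82, the latter from 1 indomethacin array. The indomethacin call held in all 17 alternatives, and the rosiglitazone call in 16, being lost when only the arrays of the 2 groups were fitted (adjusted p = 0.0664). Ibuprofen gave -0.53 (-0.90 to -0.15, adjusted p = 0.0687), diclofenac -0.39 (-0.77 to -0.02, adjusted p = 0.337) and GQ16 0.21 (-0.17 to 0.58, adjusted p = 0.602). A second Thy1 probe was above background on no array. T cell markers were also at background: of the 4 lymphoid markers with a probe, none was above it on any array.

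Dlk1 was measured by 2 probes that passed the filter, and they gave different calls. The brighter one read 12.54, 12.58 and 12.75 with rosiglitazone, 12.86, 12.84 and 12.96 with diclofenac, and 12.80, 12.61 and 12.97 with indomethacin. It read 12.66, 12.67 and 12.34 with ibuprofen, 12.93, 12.61 and 12.91 with GQ16, and 13.07, 13.25 and 12.67 with DMSO. DMSO replicate 3 lay inside the range of the treated arrays, and all 5 groups overlapped DMSO.

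By this probe Dlk1 fell with ibuprofen (-0.44 ± 0.14, adjusted p = 0.0489), a call that held in 6 of 17 alternatives. It was lost without any 1 of the 3 ibuprofen arrays and without DMSO replicate 1 or 2 (adjusted p up to 0.308). The change was -0.29 with slide as a block (adjusted p = 0.373) and -0.11 within slide 2, the only slide with both groups, where the DMSO array is replicate 3. Without the 2 arrays apart it was -0.60 (adjusted p = 0.00213). No slide then held both groups, so in that setting ibuprofen and slide cannot be told apart. Rosiglitazone gave -0.37 ± 0.14 (adjusted p = 0.0628), or -0.50 without the 2 arrays apart (adjusted p = 0.0170). Indomethacin gave -0.20, GQ16 -0.18 and diclofenac -0.11, with adjusted p-values of 0.409, 0.545 and 0.822.

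The dimmer Dlk1 probe read 10.77, 10.08 and 10.81 with rosiglitazone, 10.37, 10.60 and 10.40 with indomethacin, and 11.14, 11.27 and 11.00 with DMSO. Both compounds lay below all DMSO arrays. Tested as its own feature among 17675 probes, of which 17% were called with rosiglitazone and 8.94% with indomethacin, it fell with indomethacin (-0.68 ± 0.20, adjusted p = 0.0368) and, at the threshold, with rosiglitazone (-0.58 ± 0.20, adjusted p = 0.04996). With ibuprofen, the compound for which the brighter probe was called, this probe gave -0.15 (adjusted p = 0.689).

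Cd34, a sialomucin of endothelial and haematopoietic cells and of adipose precursors in tissue, was near background. It exceeded 6.18 on 4 of 18 arrays, 1 each with diclofenac, ibuprofen, GQ16 and DMSO. No rosiglitazone or indomethacin array and only 1 DMSO array exceeded background, so no size of change is given. Limma called neither compound (adjusted p = 0.510 and 0.182). Its values ran from 5.95 to 6.35 over all arrays, and no comparison called it.

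**Figure D3:**
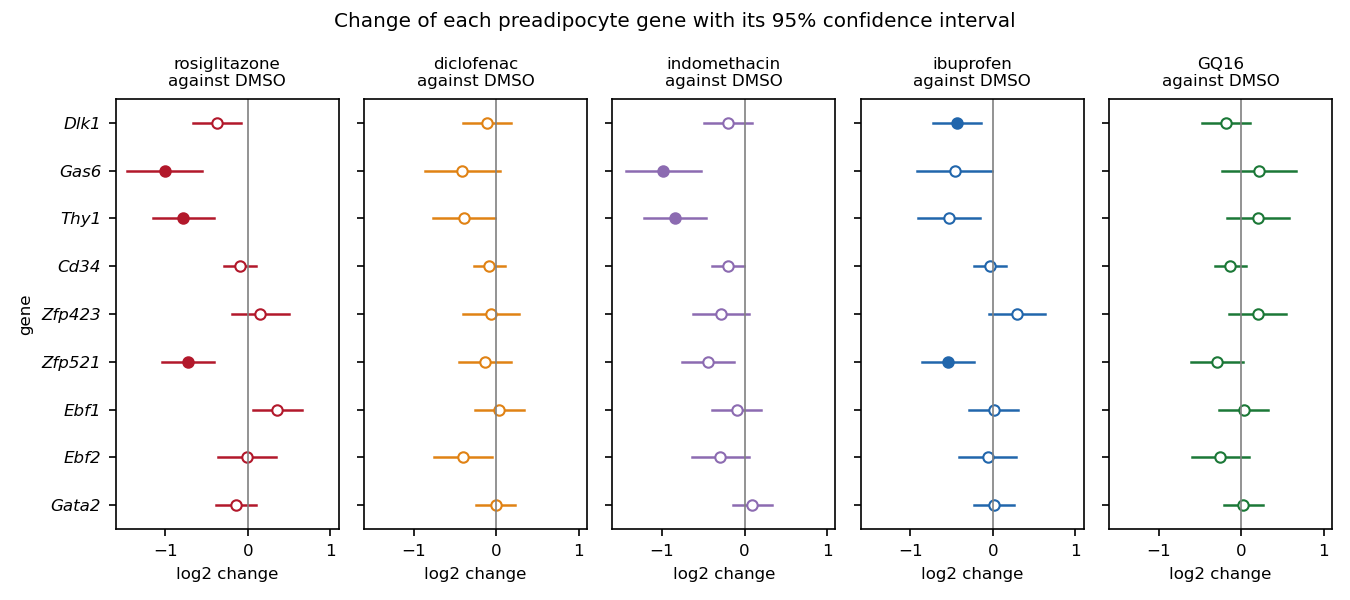
Log2 change of each of the 9 genes against DMSO (horizontal axes) with its 95% confidence interval, 1 panel per compound with 3 arrays per group; filled points passed an adjusted p of 0.05. The filled points are Gas6, Thy1 and Zfp521 with rosiglitazone, Gas6 and Thy1 with indomethacin, and Dlk1 and Zfp521 with ibuprofen.

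Zfp521 is a zinc finger protein that represses Zfp423 and opposes adipogenesis. Its arrays read 7.18, 7.21 and 7.11 with rosiglitazone, 7.30, 7.67 and 7.08 with ibuprofen, against 7.72, 7.89 and 8.06 with DMSO. They read 7.68, 7.64 and 7.95 with diclofenac, 7.64, 7.28 and 7.40 with indomethacin, and 7.50, 7.70 and 7.59 with GQ16. The rosiglitazone arrays lay close together, all below DMSO, and only the diclofenac arrays overlapped the DMSO arrays.

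The Zfp521 change was -0.72 ± 0.15 with rosiglitazone (adjusted p = 0.00175, DMSO 1.65-fold above). It was -0.75 with slide as a block and -0.64 within slide 1, and the call held in all 17 alternatives. With ibuprofen the change was -0.54 ± 0.15 (adjusted p = 0.0273), or -0.59 with slide as a block (adjusted p = 0.0646). It was -0.71 within slide 2, with 3 ibuprofen arrays against DMSO replicate 3 alone, the highest DMSO array for this gene. The ibuprofen call held in 11 of 17 alternatives. It was lost without ibuprofen replicate 1 or 3 and without DMSO replicate 2 or 3 (adjusted p up to 0.150). Indomethacin gave -0.45 ± 0.15 (adjusted p = 0.0633), or -0.53 with slide as a block, where it passed (adjusted p = 0.0458). GQ16 gave -0.29 (-0.61 to 0.02, adjusted p = 0.332) and diclofenac -0.13 (-0.45 to 0.18, adjusted p = 0.788). A second Zfp521 probe was above background on no array.

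Zfp423, which sensitizes preadipocytes to BMP signals and induces Pparg, did not pass with any compound. Its brighter probe read 8.04, 7.68 and 7.36 with rosiglitazone, 7.12, 7.22 and 7.42 with indomethacin, 7.85, 7.88 and 7.76 with ibuprofen, against 7.51, 7.49 and 7.63 with DMSO. The indomethacin arrays lay below DMSO (-0.29 ± 0.17, adjusted p = 0.311) and the ibuprofen arrays above (0.29 ± 0.17, adjusted p = 0.301). Rosiglitazone gave 0.15 (-0.19 to 0.49), GQ16 0.20 (-0.14 to 0.54) and diclofenac -0.07 (-0.41 to 0.27). The dimmer probe gave -0.18 with indomethacin and 0.20 with ibuprofen, with adjusted p-values of 0.429 and 0.343.

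The 3 probes of Ebf1, a helix-loop-helix factor that acts upstream of Pparg and Cebpa, did not move together. The brightest one read 10.63, 10.25 and 10.26 with rosiglitazone, against 9.94, 10.03 and 10.10 with DMSO, and the ranges did not overlap. Its change was 0.36 ± 0.14 (adjusted p = 0.0869), while the other probes gave -0.19 and -0.25 (adjusted p = 0.536 and 0.306). With diclofenac the 3 probes gave 0.04, -0.15 and -0.52, and with indomethacin -0.09, 0.24 and -0.45, none of which passed. In the platform annotation the brightest and the dimmest probe are tied to cDNA clone records, and the one between them to the RefSeq transcript.

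Ebf2, which marks precursors of brown and beige fat, also had 2 probes that differed. The brighter one read 8.67, 7.97 and 8.11 with rosiglitazone and 8.20, 8.26 and 8.30 with DMSO, a change of -0.01 ± 0.17 (adjusted p = 0.981). The dimmer one read 6.60, 7.31 and 7.34 with rosiglitazone, against 7.61, 7.83 and 7.58 with DMSO, and fell (-0.59 ± 0.17, adjusted p = 0.0220). Rosiglitazone replicate 1 was the highest of its group by the brighter probe and the lowest by the dimmer one. Diclofenac gave -0.40 by the brighter probe, with arrays of 7.83, 7.79 and 7.94 all below DMSO (adjusted p = 0.268).

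**Figure D4:**
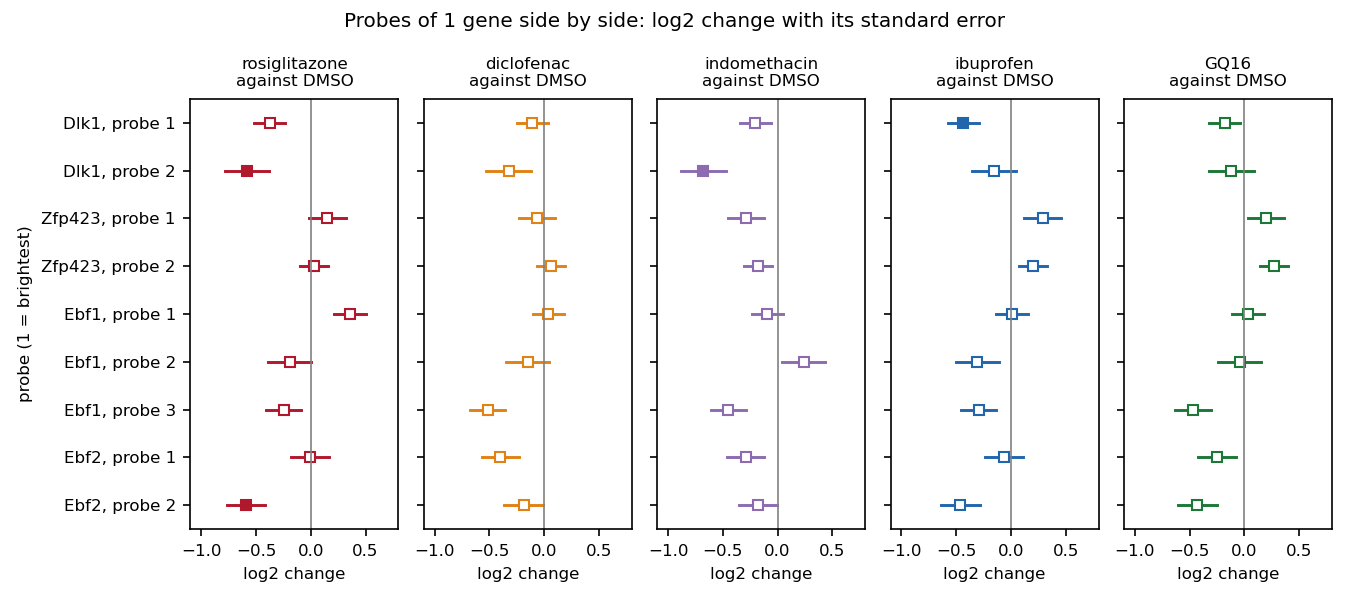
Log2 change against DMSO (horizontal axes) with its standard error for each probe of the 4 genes with several probes above background, 1 panel per compound with 3 arrays per group; filled squares passed an adjusted p of 0.05 over all 17675 probes. The Dlk1 probes differ in which compound is called, and the Ebf1 probes give 0.36, -0.19 and -0.25 with rosiglitazone.

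Gata2, a zinc finger factor that holds cells in the preadipocyte state, was above background on 13 of 18 arrays and never by much. It read 6.12, 6.23 and 6.10 with rosiglitazone, 6.43, 6.35 and 6.39 with indomethacin, and 6.53, 6.20 and 6.15 with DMSO. Every compound's arrays overlapped the DMSO arrays, while those of indomethacin and rosiglitazone did not overlap each other. The changes against DMSO ran from -0.15 with rosiglitazone to 0.10 with indomethacin (adjusted p = 0.403 and 0.677). Signals this near background compress a change, so a small one was not detectable here.

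Read over the 9 genes, 3 fell and 0 rose with rosiglitazone, beside 18.1% of all genes called, 8.07% higher and 10% lower. The median change of the 9 was -0.15, against 0.00 over all genes tested. With indomethacin 2 fell (10.2% of all genes called, 3.58% higher and 6.65% lower) with a median of -0.29, and with ibuprofen 2 fell (9.46% called, 4.26% higher and 5.2% lower) with a median of -0.06. The median was -0.11 with diclofenac and 0.03 with GQ16. Limma called 0 of the 9 with diclofenac (2.1% of all genes called, 0.62% higher and 1.48% lower). Unadjusted, 2 were lower and 0 higher with diclofenac at p under 0.05. With GQ16 it also called 0 (1.43% of all genes called, 0.684% higher and 0.748% lower), and 0 at an unadjusted p under 0.05. All 5 comparisons share the 3 DMSO arrays. Arrays of compound and DMSO did not overlap for 5 of the 9 genes with rosiglitazone (28.7% of all genes), 2 with diclofenac (23.7%), 6 with indomethacin (35.9%), 3 with ibuprofen (30.2%) and 2 with GQ16 (19.1%). Among these, Ebf1 with rosiglitazone and Zfp423 with ibuprofen were higher than with DMSO, and the others were lower. The rosiglitazone and indomethacin counts include Cd34, which was near background.

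Each other compound was next set against rosiglitazone, again with unequal doses. Gas6 was higher with GQ16, at 12.12, 11.44 and 12.03, against 10.57, 10.14 and 11.21 with rosiglitazone, a change of 1.22 ± 0.22 or 2.33-fold (adjusted p = 0.000618). Thy1 was higher with GQ16 by 0.99 ± 0.18 or 1.98-fold (adjusted p = 0.000751). The arrays did not overlap for either gene, and both calls held in all 17 alternatives. With slide as a block the changes were 1.25 for Gas6 and 0.93 for Thy1. Within slide 3, with 2 GQ16 arrays against rosiglitazone replicate 1 alone, they were 1.16 and 0.58. These are 2 of the 9 genes, where 14.8% of all genes were called, 8.74% higher and 6.04% lower. Arrays of GQ16 and rosiglitazone did not overlap for 4 of the 9, Gas6, Thy1, Zfp521 and Ebf1, beside 24.4% of all genes. Zfp521 gave 0.43 ± 0.15 (adjusted p = 0.0588), and the intervals for the other 6 genes included differences from -0.62 for Ebf1 to 0.48 for Dlk1.

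With diclofenac, Zfp521 was higher than with rosiglitazone, at 7.68, 7.64 and 7.95, against 7.18, 7.21 and 7.11. The change was 0.59 ± 0.15 (adjusted p = 0.0438), or 0.56 with slide as a block, 0.48 within slide 1 (1 diclofenac array against 2) and 0.77 within slide 3 (1 against 1). It was the 1 call among the 9 genes (1.94% of all genes called, 1.01% higher and 0.931% lower), and it held in 8 of 17 alternatives, being lost without rosiglitazone replicate 1 or 3 and without any 1 of the 3 diclofenac arrays (adjusted p up to 0.171). Gas6 gave 0.60 (0.14 to 1.05, adjusted p = 0.182).

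Indomethacin and rosiglitazone gave 0 limma calls among the 9 genes (0.0365% of all genes called, 0.00912% higher and 0.0274% lower). Unadjusted p-values were under 0.05 for 1 gene that was higher, Gata2 (0.24), and 2 that were lower, Ebf1 (-0.45) and Zfp423 (-0.44). The difference was 0.02 for Gas6 (-0.43 to 0.47) and -0.06 for Thy1 (-0.43 to 0.32), intervals that leave room for a moderate difference in either direction. Ibuprofen and rosiglitazone also gave 0 calls (1.34% of all genes called, 0.63% higher and 0.712% lower). Unadjusted p-values were under 0.05 for 1 gene in each direction, Gas6 higher and Ebf1 lower. There the differences were 0.54 for Gas6 (0.09 to 1.00, adjusted p = 0.220) and 0.18 for Zfp521 (-0.13 to 0.50, adjusted p = 0.571). By its brightest probe Ebf1 was lower than with rosiglitazone for each other compound. Its change was -0.32 with diclofenac, -0.45 with indomethacin, -0.35 with ibuprofen and -0.33 with GQ16. None passed (adjusted p = 0.129 to 0.424), and these comparisons share the rosiglitazone arrays.

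Genes that act with the 10, or share their place in the lineage, were counted in lists chosen by function. Their counts stand beside the shares of all genes called. Of all genes, 10% fell and 8.07% rose with rosiglitazone, 1.48% and 0.62% with diclofenac, and 6.65% and 3.58% with indomethacin. With ibuprofen 5.2% fell and 4.26% rose, and with GQ16 0.748% and 0.684%. Among 19 progenitor and stromal surface markers 13 were tested. With rosiglitazone 3 fell and 0 rose: Ly6c1, a relative of Ly6a (-1.12 ± 0.20, adjusted p = 0.000447), the platelet-derived growth factor receptor Pdgfra, a general marker of adipose precursors (-0.69 ± 0.22, adjusted p = 0.0325), and Pdgfrb. Pdgfrb was below background on all rosiglitazone arrays and was at least 1.16-fold lower than with DMSO (adjusted p = 0.0122), and leaving out DMSO replicate 2 ended that call (adjusted p = 0.108). The Pdgfra call held in 10 of 17 alternatives, with an adjusted p of up to 0.248 in the others. It was lost without rosiglitazone replicate 1 and without DMSO replicate 1 or 2 (adjusted p up to 0.173). The mean of all probes, no filter on dim probes, only the 2 groups fitted and leaving out the 2 arrays apart also ended it.

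With indomethacin 2 of the 13 fell, Ly6c1 (-0.74 ± 0.20, adjusted p = 0.0211) and the perivascular adhesion molecule Mcam (-0.64 ± 0.15, adjusted p = 0.00788). With ibuprofen 3 fell, Pdgfra (-0.94 ± 0.22, adjusted p = 0.00853), Ly6c1 (-0.69 ± 0.20, adjusted p = 0.0349) and Pdgfrb, at least 1.16-fold lower (adjusted p = 0.0429). All 3 ibuprofen calls were lost with slide as a block. Limma called 0 of the 13 with diclofenac (0 up and 2 down at an unadjusted p under 0.05) and 0 with GQ16 (2 up and 4 down). The median change of the 13 was -0.20 with rosiglitazone, -0.14 with diclofenac, -0.07 with indomethacin, -0.20 with ibuprofen and -0.07 with GQ16.

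Because Dlk1 is a relative of the Notch ligands, 18 Notch receptors, ligands, proteases and targets were listed, of which 8 were tested. With rosiglitazone 1 rose and 2 fell. Notch4 rose (0.54 ± 0.13, adjusted p = 0.00726), a call lost without rosiglitazone replicate 3 (adjusted p = 0.0539). The Notch target Hes1, a transcriptional repressor, read 8.10, 7.58 and 7.21 with rosiglitazone, 7.71, 7.89 and 7.60 with indomethacin, and 8.66, 8.61 and 8.79 with DMSO. It fell with rosiglitazone (-1.06 ± 0.24, adjusted p = 0.00359), indomethacin (-0.95 ± 0.24, adjusted p = 0.0129) and ibuprofen (-0.76 ± 0.24, adjusted p = 0.0474), and the ibuprofen call was lost with slide as a block. Without indomethacin replicate 1 or 3 the indomethacin call for Hes1 was lost too (adjusted p up to 0.0583). The protease Adam10 fell with rosiglitazone (-0.50 ± 0.11, adjusted p = 0.00255), a call lost without the 2 arrays apart (adjusted p = 0.0591). Limma called 0 of the 8 genes with diclofenac (0 up and 2 down at an unadjusted p under 0.05) and 0 with GQ16 (1 in each direction). Notch1 was called against DMSO with no compound, Notch2 was above background on no array, and Notch3 was near background.

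In the list of BMP ligands, receptors, effectors and antagonists, the pathway that Zfp423 sensitizes, 11 of 20 were tested and 3 fell with rosiglitazone, 0 with diclofenac (2 lower at an unadjusted p under 0.05), 2 with indomethacin, 2 with ibuprofen and 0 with GQ16 (1 up and 2 down at an unadjusted p under 0.05). None of the 11 rose with any compound, where 0.62% to 8.07% of all genes rose, a share at which 0 of 11 does not stand out. The BMP antagonist Grem1 changed by -0.78 ± 0.16 with rosiglitazone (adjusted p = 0.00112), -0.55 with indomethacin (adjusted p = 0.0257) and -0.71 with ibuprofen (adjusted p = 0.00597). The BMP-induced inhibitor of differentiation Id2 changed by -0.52 ± 0.11 with rosiglitazone (adjusted p = 0.00131), -0.41 with indomethacin (adjusted p = 0.0140) and -0.38 with ibuprofen (adjusted p = 0.0224). The antagonist Chrd fell with rosiglitazone (-0.59 ± 0.20, adjusted p = 0.0402), a call lost without rosiglitazone replicate 3 or DMSO replicate 3 (adjusted p up to 0.220). The indomethacin call for Grem1 was lost with slide as a block and without 4 of the 6 arrays in turn, and that for Id2 without 3 of them.

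Of 28 other transcription factors of lineage commitment 20 were tested. Twist2, a helix-loop-helix factor of mesenchymal cells, rose in 4 comparisons. It read 10.98, 10.98 and 10.94 with rosiglitazone, 10.78, 10.92 and 10.67 with indomethacin, 10.81, 10.69 and 10.70 with ibuprofen, against 9.75, 9.70 and 10.18 with DMSO. The changes were 1.09 ± 0.16 with rosiglitazone (adjusted p = 3.43e-05), 0.92 with indomethacin (adjusted p = 0.000498), 0.86 with ibuprofen (adjusted p = 0.00119) and 0.64 with diclofenac (adjusted p = 0.0331). The first 3 calls held in all 17 alternatives, and the diclofenac call was lost with slide as a block.

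Twist2 was the 1 factor of the 20 that rose with rosiglitazone, while 3 fell: Trps1, an atypical GATA-type repressor (-1.04 ± 0.18, adjusted p = 0.000221), the Wnt effector Tcf7l2 (-0.67 ± 0.15, adjusted p = 0.00365) and Zfpm2, a cofactor of GATA proteins (-0.59 ± 0.19, adjusted p = 0.0298). The Zfpm2 call was lost on leaving out any 1 of 5 of the 6 arrays. With indomethacin 2 rose and 1 fell, namely Twist2, the homeobox factor Irx3 (0.59 ± 0.16, adjusted p = 0.0159) and Trps1 (-0.58 ± 0.18, adjusted p = 0.0383, lost with slide as a block). With ibuprofen 2 rose and 2 fell, namely Twist2, Irx3 (0.50 ± 0.16, adjusted p = 0.0436), Tshz1 (-0.90 ± 0.18, adjusted p = 0.00214) and Tcf7l2 (-0.59 ± 0.15, adjusted p = 0.0175). The Irx3 and Tcf7l2 calls with ibuprofen were lost with slide as a block. Limma called 0 of the 20 with GQ16, with 1 up and 3 down at an unadjusted p under 0.05. Gata2's relatives Gata3 and Gata6 were called against DMSO with no compound.

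Of 12 adipocyte markers tested, 2 rose and 2 fell with rosiglitazone: Adig (0.43 ± 0.11, adjusted p = 0.00574), the lipase Pnpla2 (adjusted p = 0.0248), Pparg (-0.76 ± 0.12, adjusted p = 8.32e-05) and the glucose transporter Slc2a4 (-0.69 ± 0.15, adjusted p = 0.00248). Pnpla2 lay at the top of the intensity scale, where rosiglitazone replicate 2 held the highest value of the normalized distribution, so no size is given for its change. With indomethacin 0 rose and 2 fell, Pparg (-0.67) and Slc2a4 (-0.67). With ibuprofen 2 rose and 1 fell, Plin1 (0.51), Adig (0.48) and Pparg (-0.40), of which the Plin1 and Pparg calls were lost with slide as a block. With diclofenac and with GQ16 Slc2a4 was the 1 gene called, and it fell by 0.66 and by 0.59 on the log2 scale. The GQ16 call was lost with slide as a block (adjusted p up to 0.190 over the alternatives). Of 6 macrophage markers 4 were above background on no array, among them Adgre1 and Ptprc, while Cd14 was above it on 18 arrays and Csf1r on 17. With rosiglitazone Csf1r gave 0.25 ± 0.09 (adjusted p = 0.0539), with arrays that did not overlap DMSO, and Cd14 gave 0.29 ± 0.14 (adjusted p = 0.157), and neither passed with any compound. The mean of the 6 was 6.16 to 6.28 on rosiglitazone arrays and 6.21 to 6.22 with indomethacin, against 6.14 to 6.18 with DMSO. It was 6.17 to 6.22 with ibuprofen, 6.13 to 6.18 with diclofenac and 6.13 to 6.19 with GQ16. Of 6 endothelial markers Emcn and Vwf were above background on no array, and Pecam1 and Cdh5 on 1 of 18 each. The mean of the 6 endothelial markers was 6.10 to 6.13 on rosiglitazone arrays and 6.10 to 6.15 with ibuprofen, against 5.99 to 6.07 with DMSO. All of these endothelial means lie below the background level of 6.18. Kdr rose with rosiglitazone (0.33 ± 0.11, adjusted p = 0.0346). That call was lost with slide as a block. The part of these markers in the results above was not tested.

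Many of the calls in these lists turned on single arrays. With ibuprofen those for Mertk, Twist2, Tshz1 and Adig held in all 17 alternatives, and each of the other 11 was lost on leaving out at least 1 array (adjusted p up to 0.308). With indomethacin Axl, Mcam, Twist2, Slc2a4 and, apart from the mean of all probes, Pparg held. The calls for Mertk, Ly6c1, Hes1, Id2, Grem1, Trps1 and Irx3 were each lost without at least 1 array (adjusted p up to 0.174). The same was true of Mertk, Twist2 and Slc2a4 with diclofenac (adjusted p up to 0.213), of Slc2a4 with GQ16 (up to 0.151) and of Pnpla2 and Kdr with rosiglitazone (up to 0.199).

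The genes whose pattern over the 18 arrays lay nearest to the 3 genes called by the F test were taken by the smallest root mean square difference after centring each gene on its mean. Differences under the median, and changes against DMSO like those of the member, follow from that choice. A link between these genes was not tested. Nearest to Gas6 were Pcolce, which enhances collagen processing (0.192), the matrix Gla protein Mgp, also vitamin K-dependent (0.216), and Dtx4, a Deltex-type ubiquitin ligase (0.265), against a median of 0.559 over all genes tested. Nearest to Thy1 were the folate enzyme Aldh1l1 (0.142), the laminin subunit Lamb2 (0.143) and Dtx4 (0.150), against a median of 0.462. Nearest to Zfp521 were Samd9l (0.129), Bahd1 (0.164) and Tmem63a (0.167), against a median of 0.338. The changes against DMSO of Mgp were -1.23 with rosiglitazone, -0.64 with diclofenac, -1.26 with indomethacin, -0.81 with ibuprofen and -0.10 with GQ16. Those of Dtx4, which stood near both Gas6 and Thy1, were -0.87, -0.40, -1.02, -0.80 and 0.03 in the same order.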

How the data were processed

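Total RNA was hybridised to Illumina mouse BeadChips, 1 array per sample. The values are the authors' deposited log2 intensities, and all 18 columns hold the same distribution (quantile normalization). The submitters' processing notes list GenomeStudio and lumi, with versions, settings and any background adjustment not given in the sources used here. Base 2 was inferred from the range of the values. Dim probes are compressed toward the floor of 5.68, which understates their changes. The number of arrays limits precision. A non-normalized table was not used here because its 36 columns of values could not be matched to samples.

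Of 45281 probes, 34885 had 1 gene symbol, 18 several and 10378 none; 34807 were matched by Entrez identifier to RefSeq (GRCm38.p6), and 0 symbols changed. Background was the 95th percentile of 1528 probes for odorant, vomeronasal and trace amine receptors. Probes above it on at least 3 arrays were kept (17675), and the brightest probe stood for a gene. Where a called gene lay below background on every array of a group, its change is given as a bound, computed against the background level.

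In limma 3.58.1 (R 4.3.3), 1 fit over 18 arrays had 12 residual degrees of freedom and an intensity-trended prior (11.9 degrees of freedom). An F test and 9 two-sided comparisons were adjusted by Benjamini-Hochberg over all genes tested. The fit was checked on simulated data. Alternatives were slide or replicate block, filters, normalizations, the mean of all probes, no trend, array weights, 2 groups only, leaving out each array, and, chosen after seeing the data, leaving out the 2 arrays apart and testing every probe. Named genes were all 10 members with every probe, up to 8 genes per list called against DMSO with the largest changes, the direct partners (the Gas6 receptors, Zfpm2 and the Notch receptors; Zfpm1 had no probe), and the 3 genes nearest in pattern to each of 3 members. The members and lists were chosen with earlier results of these data known.

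Replicate numbers did not pair the samples: over 45 same-numbered pairs the correlation of deviations ran from -0.33 to 0.53, above 0.1 in 10. No 2 arrays were identical among 153 pairs.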

Additional observations from a re-analysis of the deposited data

How the results depend on the processing

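The calls for Gas6 and Zfp521 with rosiglitazone, Gas6 and Thy1 with indomethacin, and Gas6 and Thy1 with GQ16 against rosiglitazone held in all 17 alternatives tested. Of the 9 genes, 3 differed among the 6 groups, 3 were called with rosiglitazone, 0 with diclofenac, 2 with indomethacin, 2 with ibuprofen and 0 with GQ16 against DMSO. Array weights gave 8, 6, 3, 6, 4 and 0 in that order. They also gave 4 and 1, where 0 were called, for indomethacin and ibuprofen against rosiglitazone, and turned Gas6 with indomethacin against rosiglitazone to -0.47 (adjusted p = 0.0123), where the reported difference was 0.02. The weight estimate stopped before convergence, with weights of 0.174 to 6.76. Without the 2 arrays apart 5 genes differed among the groups, and with every probe tested 5 were called with rosiglitazone. For ibuprofen the count was 0 with slide as a block or no filter on dim probes and 1 with a replicate block, the mean of all probes or no trend. For diclofenac against rosiglitazone the 1 call became 0 with a replicate block, no filter, only the 2 groups fitted, every probe tested or the 2 arrays apart left out. Leaving out 1 array gave 3 to 4 for the F test and for rosiglitazone, 0 to 2 for ibuprofen, 0 to 1 for diclofenac against rosiglitazone and 0 to 1 for ibuprofen against rosiglitazone. The cause was not tested. The replicate block, whose numbers did not pair the samples (6 of 18 arrays lay closest to their own number), changed no other count of these genes by over 1.5 times.

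Over all genes, array weights gave 6986 calls by the F test (2025 reported), and 5897, 1861, 4357, 3613 and 708 for rosiglitazone, diclofenac, indomethacin, ibuprofen and GQ16 against DMSO (1985, 230, 1121, 1037 and 157 reported). Against rosiglitazone they gave 2263, 2476, 1443 and 2216 for diclofenac, indomethacin, ibuprofen and GQ16 (213, 4, 147 and 1620 reported). The other settings, leaving out an array included, gave 1399 to 3522 by the F test, 745 to 2417 with rosiglitazone, 93 to 487 with diclofenac, 521 to 1888 with indomethacin, 381 to 2340 with ibuprofen and 3 to 681 with GQ16. Against rosiglitazone they gave 31 to 460, 1 to 126, 15 to 410 and 313 to 1985. Signal near background limits Cd34 and Gata2.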
